A study of Mus musculus with 28 samples.

Results

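The cadherin switch is the exchange of one classical cadherin for another when epithelial cells pass through an epithelial to mesenchymal transition (EMT). E-cadherin (Cdh1) is the homophilic adhesion receptor of the adherens junction in luminal epithelium, P-cadherin (Cdh3) is its close relative in basal epithelium, and N-cadherin (Cdh2) and cadherin-11 (Cdh11) are the classical cadherins of mesenchymal cells. Their cytoplasmic tails bind β-catenin (Ctnnb1) and p120-catenin (Ctnnd1), β-catenin binds α-catenin (Ctnna1), which couples the complex to actin, and Epcam is a non-cadherin epithelial adhesion molecule. Acetylation of histone H3 at lysine 27 (H3K27ac) marks promoters and enhancers in use, and TGF-β, which induces EMT, also signals through the MEK and ERK kinases.

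H3K27ac peaks of these 8 genes were taken from the peak lists of 15 ChIP-seq libraries of NMuMG cells, a mouse mammary gland epithelial line of which the E9 subclone was used throughout. The cells were untreated (0h) or had received 2 ng/ml TGF-β for 4 or 24 hours, either with the solvent DMSO (4h and 24h) or with 25 µM of the MEK inhibitor UO126 (ERKi 4h and ERKi 24h), the inhibitor or solvent being given 30 min before TGF-β, and each of the 5 conditions has 3 libraries. No library had the inhibitor without TGF-β, and the sources used here do not settle whether the untreated cells had solvent. Each inhibitor comparison is between cells that had all received TGF-β. A peak was taken where its summit lay within 100 kb of a protein-coding start site of one of the 8 genes and nearer to it than to that of any other gene, which held for 1030 of 893719 peaks. Overlapping peaks of all libraries were merged into regions, 103 of 89050 regions belonged to the 8 genes, and 29 of these were called in all 15 libraries while 26 were called in 1 library only.

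The lists held 50445 to 69180 peaks each. Promoters of 5 of 10 epithelial marker genes, namely Krt8, Krt18, Krt19, Cdh1 and Elf3, carried a peak in all 3 libraries of each condition, that of Cldn4 in none at 0h and in 3, 3, 2 and 3 libraries of 4h, 24h, ERKi 4h and ERKi 24h, whereas those of Epcam, Esrp1, Cldn3 and Cldn7 carried none in any library. None of the 3 endothelial and 3 leukocyte markers had a promoter peak, 1 of 4 basal markers (Acta2) had one in 2 libraries, both at 24h, and of 5 fibroblast markers Col1a1 had one in all 15 libraries, Pdgfra in 3 and Pdgfrb in 1. The level of a region is given below as scaled fragments, which is the number of fragments stacked at the summit of the library's highest peak there, divided by a factor for the library. In such bulk chromatin a mark in fewer cells and less of it per cell cannot be told apart. Promoter means a summit within 1000 bp of a start site on either side.

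The sequences of 4 windows of 300 bases of the mm9 genome are shown, all on the plus strand. They are the Cdh1 promoter and 3 distal regions of Cdh3 and Ctnnb1 that rose at 24h. The levels, fits and calls given below were not computed from these sequences. Capitals mark matches, on either strand, to CAGGTG (the E-box of Snail and Zeb factors), TGANTCA (AP-1), GGAATG (TEAD), TGTGGTT (RUNX) and AACNNGTT (Grainyhead).
Cdh1 promoter, chr8:109127001-109127300, 250 bases before the most upstream start site to 49 after it: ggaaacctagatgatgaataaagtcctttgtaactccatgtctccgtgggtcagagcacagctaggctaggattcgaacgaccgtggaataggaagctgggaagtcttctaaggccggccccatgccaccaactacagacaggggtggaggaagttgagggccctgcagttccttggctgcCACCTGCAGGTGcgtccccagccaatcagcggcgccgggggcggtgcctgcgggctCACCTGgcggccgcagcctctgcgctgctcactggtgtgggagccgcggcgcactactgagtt
Cdh3 intron, 8.3 kb downstream of a start site, chr8:109042990-109043289: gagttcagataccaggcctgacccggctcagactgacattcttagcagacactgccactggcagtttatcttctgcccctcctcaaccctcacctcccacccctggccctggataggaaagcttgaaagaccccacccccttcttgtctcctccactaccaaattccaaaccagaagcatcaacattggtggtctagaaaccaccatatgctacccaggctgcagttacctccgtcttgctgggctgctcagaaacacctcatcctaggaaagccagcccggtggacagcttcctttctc
Cdh3 intron, 19.4 kb downstream, chr8:109054087-109054386: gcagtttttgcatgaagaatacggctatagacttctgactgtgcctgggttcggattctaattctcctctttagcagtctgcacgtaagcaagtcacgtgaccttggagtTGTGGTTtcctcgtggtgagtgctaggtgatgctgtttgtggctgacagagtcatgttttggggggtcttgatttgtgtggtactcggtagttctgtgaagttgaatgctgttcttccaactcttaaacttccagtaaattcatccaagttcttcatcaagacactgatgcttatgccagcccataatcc
Ctnnb1, 62.8 kb upstream, chr9:120775425-120775724: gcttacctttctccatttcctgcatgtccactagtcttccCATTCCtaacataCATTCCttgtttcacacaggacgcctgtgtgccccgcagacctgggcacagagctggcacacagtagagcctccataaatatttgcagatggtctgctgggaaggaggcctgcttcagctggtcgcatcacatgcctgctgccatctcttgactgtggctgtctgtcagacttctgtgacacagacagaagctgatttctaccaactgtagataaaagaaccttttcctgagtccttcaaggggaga
The distal windows are centred on the median summit over libraries. The Cdh1 promoter held 3 matches to CAGGTG, which began 69, 63 and 13 bases upstream of the start site, the first 2 of them directly adjoining on opposite strands. Of 22232 protein-coding promoters 19.8% held at least 1 match to it in the same window. The Cdh3 region at 19.4 kb held 1 match to TGTGGTT, the Ctnnb1 region held 2 matches to GGAATG, and the Cdh3 region at 8.3 kb held none of the 5 motifs. Among 12844 distal regions called in all libraries 20.4% held CAGGTG, 10.3% TGANTCA, 17.6% GGAATG, 6.09% TGTGGTT and 4.33% AACNNGTT in such a window, against 6, 3, 4, 4 and 1 of the 24 distal regions of the 8 genes. In the promoters the AP-1 motif was found in 6.79%, the RUNX motif in 5.12%, the TEAD motif in 13.4% and the Grainyhead motif in 4.25%. These are matches of letters and do not show binding.

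The genes differed in the number of regions assigned to them by the nearest start site, a number that also depends on how far neighbouring genes lie. Cdh1 (chr8:109127251-109194146 in mm9, plus strand) had 19 regions from 14.1 kb upstream to 37.5 kb downstream of its start, 17 of them in its introns apart from the promoter, and 6 were called in all libraries. Ctnnb1 (chr9:120838334-120869625, plus strand) had 32 regions and 5 in all libraries, Cdh2 (chr18:16747386-16967755, minus strand) 15 and 4, Epcam (chr17:88035319-88050446, plus strand) 14 and 4, Ctnna1 (chr18:35278542-35414427, plus strand) 12 and 6, Ctnnd1 (chr2:84440228-84490922, minus strand) 6 and 2, and Cdh3 (chr8:109034791-109080808, plus strand) 5 and 2. Of the Ctnnb1 regions 9 were called in 1 library only, and those from 6.1 to 89.4 kb downstream lay in introns of another gene, Ulk4. Cdh11 (chr8:105156895-105309011, minus strand) had no region: the nearest summit of any library lay 1325.5 kb from its start site, and none lay within 500 kb. Epcam and Cdh3 had no promoter peak in any library, the nearest summits being 19.2 kb and 2.04 kb from a start site, so for both genes distal regions are all there is to describe.

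Cdh1, Cdh2, Ctnna1, Ctnnb1 and Ctnnd1 had a promoter region called in all libraries. None of these 5 regions passed the threshold (adjusted p under 0.05, limma across 26934 regions) in any of the 4 comparisons. At the Cdh1 promoter region (chr8:109127253-109128707, summit 279 bp downstream of the nearest start site, in an intron) the levels were 143, 148 and 129 scaled fragments at 0h, 151, 155 and 145 for 4h, 129, 134 and 126 for 24h, 146, 154 and 132 for ERKi 4h and 118, 152 and 112 for ERKi 24h. Levels at 24h and 0h overlapped, with means of 129.8 ± 3.56 and 140.1 ± 9.59 (SD, n = 3). The log2 difference was −0.11 ± 0.14 (SE) at 24h against 0h (adjusted p = 0.725, limma), −0.07 ± 0.14 for ERKi 4h against 4h and −0.04 ± 0.14 for ERKi 24h against 24h (adjusted p = 1 and 0.926).
At the Cdh2 promoter region (chr18:16965652-16968695, summit 908 bp downstream, in an exon) they were 124, 103 and 144 for 0h, 110.2, 106 and 135 for 4h, 129, 144 and 152 for 24h, 142, 143 and 149 for ERKi 4h and 161, 142 and 172 for ERKi 24h. The Cdh2 promoter was thus already acetylated in untreated cells at a level near that of Cdh1, and its log2 difference at 24h against 0h was 0.20 ± 0.15 (adjusted p = 0.453, limma). In fold enrichment over local background the 2 promoters were less alike at 0h, averaging 6.88 ± 1.18 for Cdh2 and 3.965 ± 0.329 for Cdh1 (SD, n = 3). The promoter region of α-catenin (Ctnna1, chr18:35277894-35279585) stood at 190.0, 177 and 169.9 for 0h, 205, 192 and 175 for 24h and 223, 194 and 201 for ERKi 24h. That of β-catenin (Ctnnb1, chr9:120842911-120845512) stood at 146, 135 and 105 for 0h, 144, 154 and 132 for 24h and 166, 209.8 and 151 for ERKi 24h, and that of p120-catenin (Ctnnd1, chr2:84488457-84491560) at 145, 177 and 118, then 168, 144 and 122, and 186, 154 and 124. The 0h and 24h libraries of all 3 catenin promoters overlapped. Over the 5 promoters and 4 comparisons the log2 differences lay between −0.24 and 0.31 with SEs of 0.12 to 0.21, the lowest adjusted p being 0.378, or 0.0594 with the replicate block (Ctnnb1 in both cases, ERKi 24h against 24h).

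**Figure D1:**
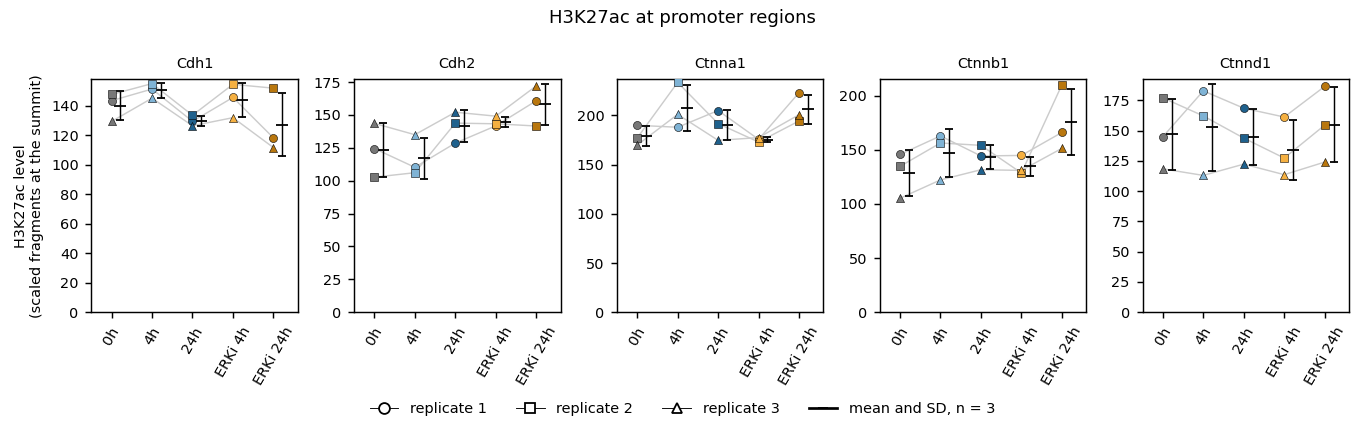
H3K27ac level (y axis, scaled fragments at the summit) at the promoter regions of Cdh1, Cdh2, Ctnna1, Ctnnb1 and Ctnnd1 in the 15 libraries (x axis, condition), with lines joining libraries of one replicate number and bars for mean and SD (n = 3). The Cdh1 promoter lies between 112 and 155 in all libraries, and no promoter passed the threshold in any comparison.

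The genes whose promoter region followed that of Cdh1 most closely over the 15 libraries, by Pearson's r of log2 levels among 9645 other genes with such a region, were Prkd2 (r = 0.885), Zfp184 (0.85) and Fam20a (0.848), and for Cdh2 they were Eif1 (0.846), Rarg (0.836) and H2-T24 (0.81). These values are a description over 15 libraries that share their treatments.

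After 24h of TGF-β the largest gain in level among the 29 regions lay at the P-cadherin gene, an order that did not hold in fold enrichment, where 3 regions of Ctnnb1, Ctnna1 and Cdh2 stood above it and none passed the threshold. At the Cdh3 intronic region 8.3 kb downstream of its start (chr8:109041688-109043976) the levels were 24.0, 26.0 and 36.2 scaled fragments at 0h, 56.9, 37.0 and 70.7 for 4h, 113, 91.3 and 146 for 24h, 58.2, 42.0 and 83.2 for ERKi 4h and 117, 92.7 and 163 for ERKi 24h. Every library at 24h lay above every library at 0h and at 4h, and the libraries with and without the inhibitor interleaved. The log2 difference at 24h against 0h was 2.02 ± 0.30 (a 4.06-fold difference, adjusted p = 0.000151, limma) and at 4h against 0h 0.91 ± 0.30 (adjusted p = 0.124, but 4.64e-05 with the replicate block), while ERKi 24h against 24h gave 0.08 ± 0.30 (adjusted p = 0.937).
The second Cdh3 region, also intronic and 19.4 kb downstream (chr8:109053088-109054703), stood at 20.4, 39.0 and 40.5 for 0h and 65.2, 65.0 and 84.3 for 24h, without overlap, and at 83.7, 56.6 and 108 for ERKi 24h. Its log2 difference at 24h against 0h was 1.16 ± 0.33 (adjusted p = 0.019, limma), which rose to adjusted p = 0.122 at most when single libraries were left out (over 0.05 without 0h replicate 1 or 24h replicate 3). At 4h against 0h its difference was 0.20 ± 0.33 (adjusted p = 0.891).

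**Figure D2:**
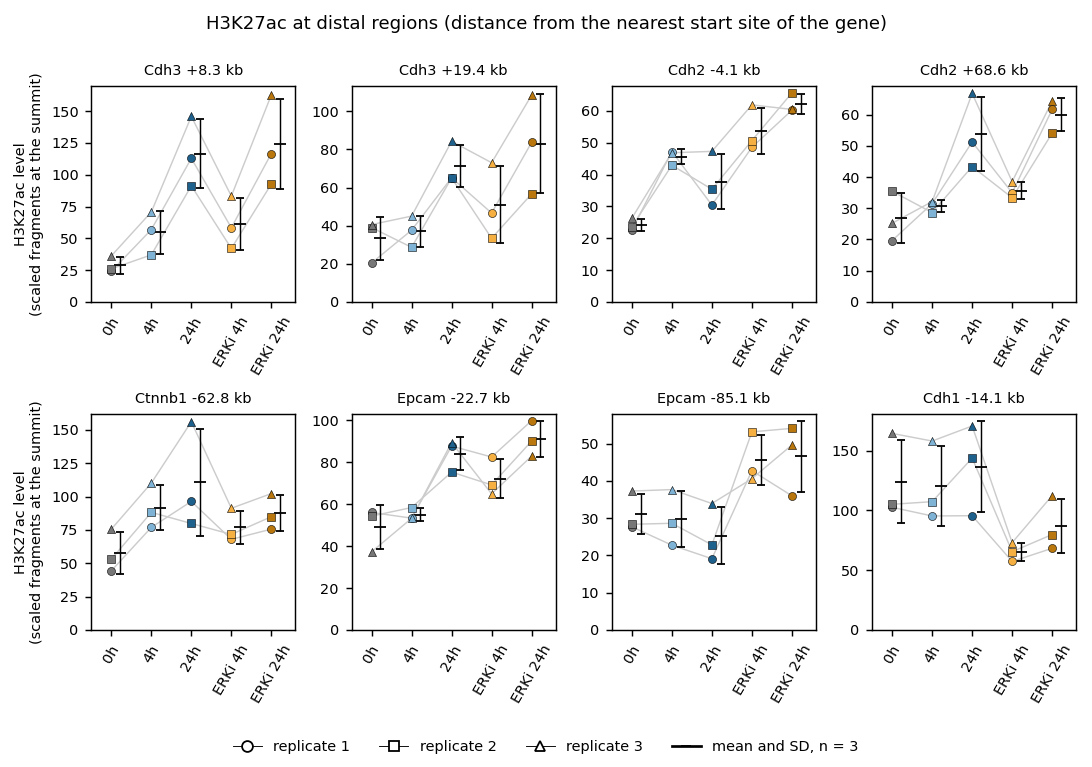
H3K27ac level (y axis, scaled fragments at the summit) at 8 distal regions, named by gene and distance from the nearest start site of the gene, in the 15 libraries (x axis, condition), with lines joining libraries of one replicate number and bars for mean and SD (n = 3). The Cdh3 region at 8.3 kb rises from 24.0 to 36.2 at 0h to between 91.3 and 146 at 24h, and the Cdh1 region 14.1 kb upstream is lower in each inhibitor library than in the DMSO library of the same number and time.

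The Cdh2 regions past the threshold lay within its introns. The region 4.1 kb upstream of an internal Cdh2 start site (chr18:16831987-16833454, in an intron of the longer transcript) stood at 22.6, 23.6 and 26.3 for 0h, 47.2, 42.9 and 46.8 for 4h, 30.4, 35.4 and 47.3 for 24h, 48.5, 50.7 and 61.9 for ERKi 4h and 60.2, 65.7 and 60.5 for ERKi 24h. All 4h and 24h libraries were above the 0h libraries, and the ERKi 24h libraries were above the 24h libraries. It rose at 4h by a log2 difference of 0.92 ± 0.21 (adjusted p = 0.018, limma) and was higher in ERKi 24h than in 24h by 0.74 ± 0.21 (adjusted p = 0.0401), and its difference at 24h against 0h was 0.62 ± 0.21 (adjusted p = 0.0515, or 0.00437 with the block).
Leaving out single libraries took the call at 4h away in 4 of 15 cases (adjusted p up to 0.0851) and that with the inhibitor in 10 of 15 (up to 0.178). In fold enrichment the differences were 0.42 at 4h against 0h (adjusted p = 0.149) and 0.13 for ERKi 24h against 24h (adjusted p = 0.656).
Another intronic region, 68.6 kb downstream of the main Cdh2 start (chr18:16898427-16900316), stood at 19.6, 35.4 and 25.2 for 0h, 31.5, 28.6 and 32.1 for 4h, 51.2, 43.4 and 66.8 for 24h, 35.0, 33.4 and 38.5 for ERKi 4h and 61.7, 54.1 and 64.3 for ERKi 24h. It rose at 24h, without overlap, by 1.03 ± 0.24 on the log2 scale (adjusted p = 0.00521), a call that was kept in all 15 cases of a library left out, and ERKi 24h against 24h gave 0.18 ± 0.24 (adjusted p = 0.769). Its neighbour 64.1 kb downstream averaged 45.6 ± 15.7 at 0h and 74.0 ± 14.4 at 24h (SD, n = 3), with a log2 difference of 0.75 ± 0.29 (adjusted p = 0.0863, or 0.0043 with the block).

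Around Epcam, 2 distal regions passed a threshold without the replicate block, in different comparisons, and the regions 72.4 and 64.6 kb upstream passed only with it. The region 72.4 kb upstream was higher at 4h, averaging 144.8 ± 40.1 scaled fragments at 0h and 186.6 ± 26.3 at 4h (SD, n = 3). The region 64.6 kb upstream was higher at 24h, averaging 89.4 ± 12.5 at 0h and 115.2 ± 23.1 at 24h. The region 22.7 kb upstream (chr17:88012155-88013589, intergenic) stood at 56.0, 54.3 and 37.3 for 0h, 53.4, 58.4 and 53.3 for 4h and 87.7, 75.3 and 89.4 for 24h, and rose at 24h by 0.79 ± 0.20 on the log2 scale (adjusted p = 0.0086, limma, and 0.0532 without 0h replicate 3). With the inhibitor it stood at 82.5, 69.2 and 64.9 for 4h and 99.9, 90.1 and 82.9 for 24h, and ERKi 4h against 4h gave 0.39 ± 0.20 (adjusted p = 0.992, or 0.164 with the block).
The region 85.1 kb upstream (chr17:87949913-87950622, intergenic) stood at 19.1, 22.8 and 33.9 for 24h and at 36.0, 54.1 and 49.6 for ERKi 24h, every inhibitor library being above every DMSO library. It was higher with the inhibitor by 0.90 ± 0.27 (adjusted p = 0.0482), which 12 of 15 fits with a library left out did not keep (adjusted p up to 0.203), and by 0.48 in fold enrichment (adjusted p = 0.149). At 0h it stood at 27.7, 28.3 and 37.3, and its log2 difference at 24h against 0h was −0.33 ± 0.27 (adjusted p = 0.505).

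Of the catenin regions called in all libraries, only 1, at Ctnnb1, passed the threshold in levels without the block. The intergenic region 62.8 kb upstream of Ctnnb1 (chr9:120774833-120776745) stood at 44.4, 53.1 and 75.6 for 0h, 77.0, 88.2 and 110.2 for 4h, 96.4, 79.9 and 156 for 24h and 75.6, 85.0 and 102 for ERKi 24h. It rose at 24h by 0.92 ± 0.25 on the log2 scale (adjusted p = 0.0167, limma), a call lost without 0h replicate 1, 0h replicate 2 or 24h replicate 3 (adjusted p up to 0.0998), and at 4h by 0.69 ± 0.14 with the block (adjusted p = 0.000602, 0.186 without it). Some Ctnna1 regions passed in levels with the block: the region 15.1 kb upstream averaged 45.0 ± 3.2 at 0h, 69.7 ± 16.0 at 4h and 66.7 ± 15.6 at 24h (adjusted p with the block 0.00923 and 0.0094), the region 66.6 kb upstream 18.1 ± 5.06 at 0h and 29.2 ± 10.5 at 24h (0.0169), and the region 24.7 kb upstream 25.3 ± 3.68 at 0h and 16.4 ± 5.76 at 24h (0.00936). The last was the only one of the 29 regions that fell at 24h with the block, and it also fell in fold enrichment without the block (a log2 difference of −0.70, adjusted p = 0.0396, limma). Its peak in 24h replicate 3 held 10 fragments, under the 11 taken as that library's floor for missing peaks. In levels without the block its adjusted p was 0.119, or 0.186 with that floor (limma). The Ctnnd1 intronic region 14.1 kb downstream was lower in ERKi 4h (120 ± 22.8) than in 4h (167 ± 39.2) by a log2 difference of −0.47 ± 0.22 (adjusted p = 0.0167 with the block, 0.887 without it).

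None of the 6 Cdh1 regions called in all libraries passed the threshold after TGF-β, with or without the replicate block. With the inhibitor 3 of its distal regions were lower, a difference that passed the threshold only where replicate numbers were kept as a block. At the intergenic region 14.1 kb upstream (chr8:109111706-109113713, between Cdh3 and Cdh1) the levels were 103, 105 and 164 for 0h, 95.3, 107 and 158 for 4h, 95.6, 144 and 171 for 24h, 57.3, 65.5 and 73.0 for ERKi 4h and 68.3, 79.8 and 112 for ERKi 24h. Every ERKi 4h library lay under every 4h library, whereas at 24h replicate 3 with the inhibitor lay above replicate 1 without it. Its log2 difference was −0.85 ± 0.26 for ERKi 4h against 4h (adjusted p = 0.33 in the fit without a block, 9.92e-05 with it, limma) and −0.65 ± 0.26 for ERKi 24h against 24h (adjusted p = 0.15 and 0.000291), against 0.13 ± 0.26 at 24h against 0h (adjusted p = 0.831). Without ERKi 4h replicate 1, whose peak names carry a library number out of the order of the others, the difference at 4h was −0.76. The local background that the peak caller set around this region moved with it, averaging 21.0 ± 4.99 scaled fragments at 4h and 13.2 ± 4.01 at ERKi 4h, and in the deposited fold enrichment over that background the differences were −0.19 and −0.23 on the log2 scale at the 2 times (adjusted p = 1 and 0.601).
The intronic region 16.8 kb downstream (chr8:109143769-109144751) averaged 202 ± 8.35 at 4h and 156 ± 16.3 at ERKi 4h, and 179 ± 19.5 at 24h and 149.5 ± 23.2 at ERKi 24h (adjusted p with the block 0.0237 and 0.0397, without it 0.649 and 0.306). The region 37.5 kb downstream (chr8:109163994-109167317) averaged 142 ± 22.2 at 24h and 113 ± 4.97 at ERKi 24h (0.0209 with the block, 0.245 without it), but 129.5 ± 9.14 at 4h and 144 ± 15.9 at ERKi 4h (0.53 with it). In fold enrichment the differences of both regions for ERKi 24h against 24h were −0.09 and −0.02, neither past the threshold. These Cdh1 regions were singled out after their values were seen.

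**Figure D3:**
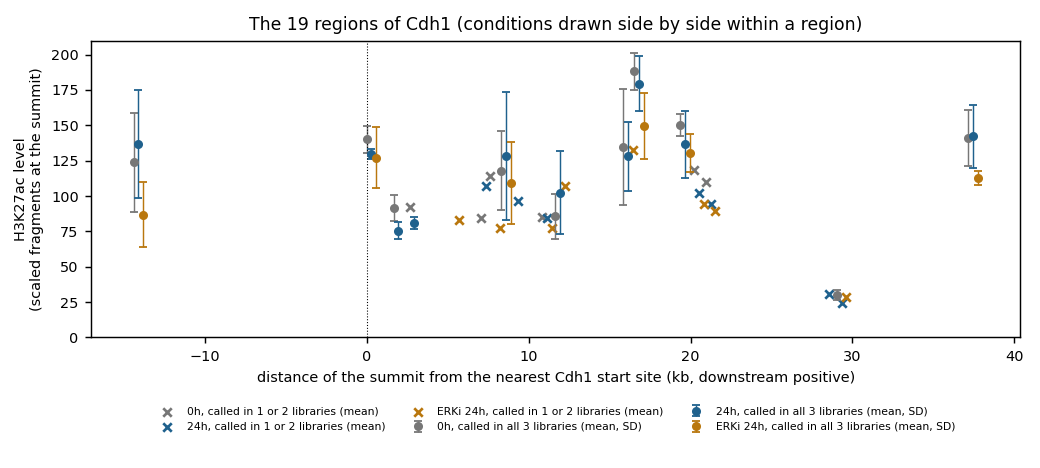
H3K27ac level (y axis, scaled fragments at the summit) of the 19 Cdh1 regions by distance from the nearest Cdh1 start site (x axis, kb) at 0h, 24h and ERKi 24h, as mean and SD where all 3 libraries called the region and as a cross for the mean of 1 or 2 libraries. The conditions of a region are drawn side by side, and at 14.1 kb upstream ERKi 24h averages 86.8 against 137 at 24h.

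The 29 regions were those called in all 15 libraries, so a region whose peak was lost in any library could not be counted. Over these 29 regions, 1 rose and 0 fell at 4h against 0h (3.47% and 0.167% of 26934 regions did so), and 5 rose and 0 fell at 24h against 0h (10.7% and 6.55%). With the inhibitor none differed at 4h (0.00743% of all regions higher and 0.223% lower), 1 and 3 regions having an unadjusted p under 0.05 in each direction, and 2 were higher and 0 lower at 24h (2.99% and 4.14%). Libraries of the same replicate number deviated together in all conditions, and with that number as a block the counts became 5 higher and 0 lower at 4h (12% and 5.12% of all regions), 10 and 1 at 24h (18.7% and 17.2%), 0 and 3 for ERKi 4h against 4h (0.839% and 3.24%) and 3 and 3 for ERKi 24h against 24h (13.3% and 14%). The 2 higher regions with the inhibitor lay at Cdh2 and Epcam and the third, with the block, at Ctnna1, 53.2 kb upstream. All 3 lower ones at 24h, past the threshold with the block only, lay at Cdh1. The median log2 difference of the 29 regions was 0.14 at 4h, 0.13 at 24h, 0.09 for ERKi 4h against 4h and 0.06 for ERKi 24h against 24h, beside −0.04, −0.03, 0.01 and 0.00 over all regions (−0.004 in the last). In the test of whether the inhibitor effect differed between 24h and 4h, 0 of the 29 regions passed the threshold in limma with or without the block (0% and 3.93% of all regions), and 1 and 4 had an unadjusted p under 0.05.

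**Figure D4:**
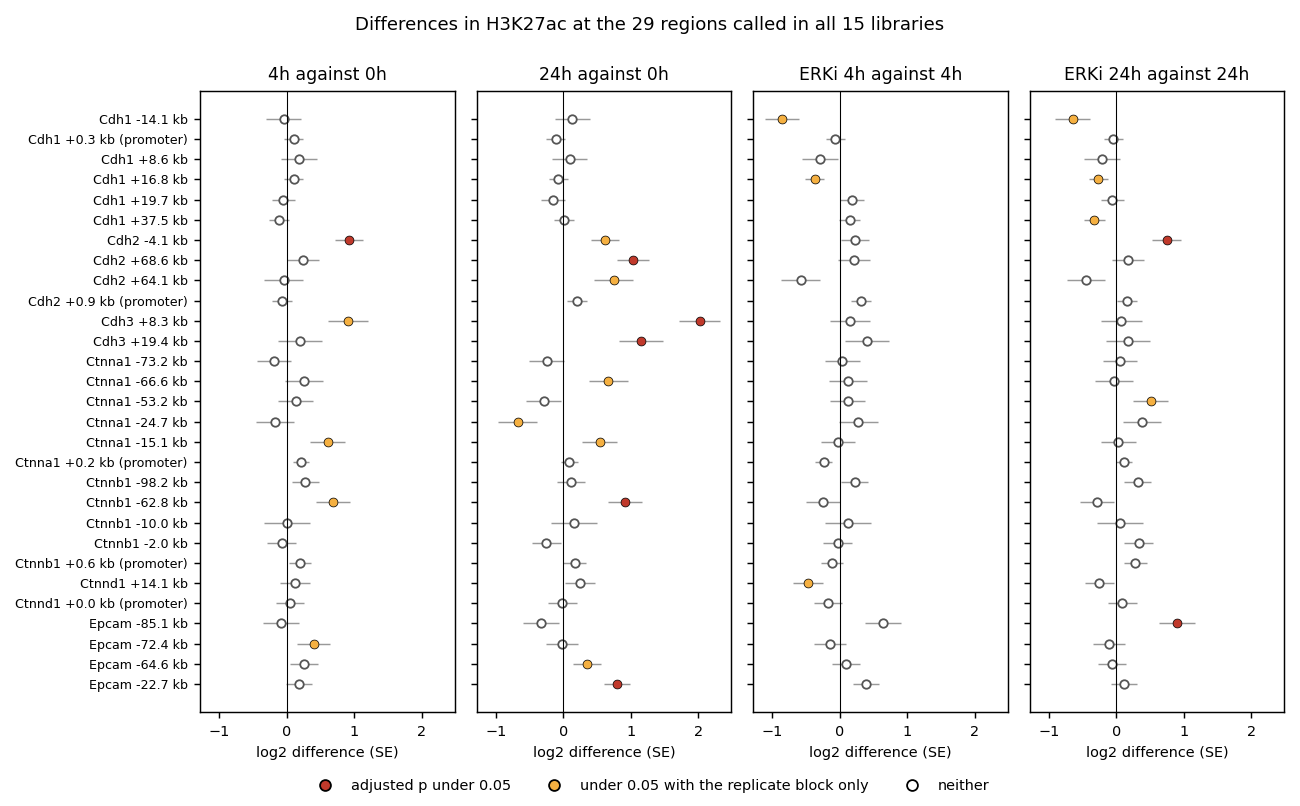
Log2 difference with SE (x axis) of the 29 regions called in all 15 libraries (y axis, gene and distance from its nearest start site) in the 4 comparisons, coloured by whether the adjusted p was under 0.05 without the replicate block, with it only, or neither. The Cdh3 region at 8.3 kb stands farthest out at 2.02 for 24h against 0h. The regions past the threshold and lower with the inhibitor at 24h are the 3 of Cdh1, with the block only.

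How a gain is seen depends on what the level is set against. The deposited fold enrichment divides the fragments at the summit by a local background, and at these loci that background moved with the signal: at the Cdh3 region 8.3 kb downstream it averaged 5.03 ± 0.87 scaled fragments at 0h and 18.2 ± 6.04 at 24h, and at the Cdh2 region 68.6 kb downstream 7.31 ± 1.78 and 15.8 ± 1.52 (SD, n = 3). In fold enrichment the 24h against 0h differences were 0.36, −0.02, −0.08, −0.07 and 0.02 on the log2 scale at the 2 regions named and at the Cdh3 region at 19.4 kb, the Ctnnb1 region and the Epcam region 22.7 kb upstream, and none of the 5 passed the threshold. At the other 3 regions the background averaged 4.07, 7.90 and 5.17 for 0h and 10.8, 16.7 and 9.52 for 24h, in the same order. Whether the peak caller took this background from the reads of the same peaks was not tested. Fold enrichment is therefore not shown to be a check separate from the level.

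Regions that some libraries did not call bear the same limit. A pair of intronic Cdh1 regions next to the promoter, 2.0 and 2.9 kb downstream of a start site (chr8:109129082-109129724 and chr8:109129810-109130310), were called in 8 and 7 of the 9 libraries without the inhibitor and in none of the 6 with it. Where called, they held 68.6 to 102 and 76.5 to 92.0 scaled fragments, but over local backgrounds that left a fold enrichment of 1.67 to 2.51 and 1.68 to 2.14, and a missing call there says that the enrichment over the surrounding chromatin did not pass the peak caller's threshold, not that fragments were absent. Over the 103 regions, 1 was called in all 3 libraries at 4h and in none at 0h and 0 the reverse (1.15% and 0.396% of 89050 regions), 3 and 1 in the comparison of 24h with 0h (4.91% and 2.07%), 2 and 1 in that of ERKi 4h with 4h (0.221% and 0.314%) and 2 and 2 in that of ERKi 24h with 24h (1.49% and 1.21%).
The intergenic region 37.2 kb upstream of Epcam was called in none of the 0h libraries, at 20.1, 19.1 and 34.0 for 4h and at 28.7, 17.1 and 38.0 for 24h. The regions 22.6 and 85.6 kb upstream of Ctnnb1 were called at 24h and not at 0h, and that 15.7 kb upstream of Ctnna1 at 0h and not at 24h. The Cdh2 region 11.5 kb downstream was called in all ERKi 24h libraries, at 12.5, 24.5 and 18.6, and in none at 24h, and the Ctnna1 region 15.6 kb downstream in all 6 inhibitor libraries, 2 at 0h and none at 4h or 24h, whereas the Ctnnb1 region 76.2 kb upstream was called in all ERKi 4h libraries and none at 4h. At a −log10 q of at least 10 none of these regions kept its pattern of calls.

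The number of distal peaks per gene was counted in each library. Cdh1 had 12, 13 and 16 for 0h, 14, 11 and 17 for 24h and 12, 10 and 14 for ERKi 24h. Cdh2 had 4 in each library at 0h and 6, 8 and 6 for 24h, and Epcam had 6, 6 and 5 for 0h and 8, 8 and 11 for 4h, both without overlap. The Cdh2 difference was 0 when summits were taken within 50 kb or start sites of all gene types were used. Among 12198 genes with a distal peak 14.4% had more and 4.74% fewer at 24h than at 0h without overlap, and 4.77% and 1.16% at 4h. None of the 8 genes was without overlap in the inhibitor comparisons, where 1.36% had more and 1.07% fewer at 4h and 4.65% and 3.39% at 24h. Ctnnb1 had 22, 13 and 24 distal peaks at ERKi 24h against 13, 12 and 18 for 24h, and the ERKi 24h lists with 22 and 24 were also long, with 64660 and 69180 peaks against 56042 in the other, a part in the result that was not tested.

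**Figure D5:**
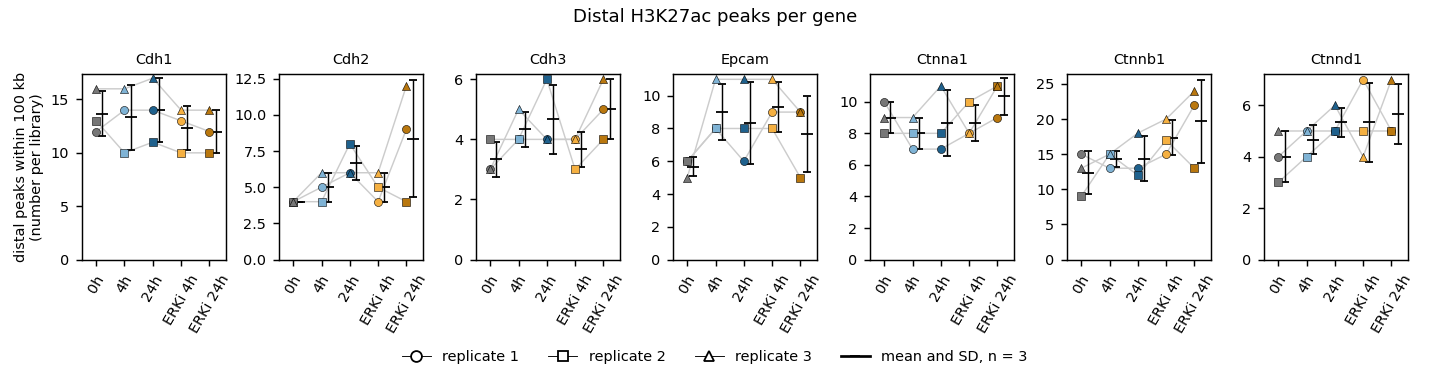
Number of distal H3K27ac peaks within 100 kb (y axis, per library) of 7 genes in the 15 libraries (x axis, condition), with lines joining libraries of one replicate number and bars for mean and SD (n = 3). Cdh11, which had none, is left out, and Cdh2 shows 4 in each 0h library and 6 to 8 at 24h.

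Other adherens junction and desmosome genes were read in the same way. Of 35 genes listed, 30 had 100 regions called in all libraries, of which 8 rose and 0 fell at 4h (3.47% and 0.167% of all regions), 19 rose and 3 fell at 24h (10.7% and 6.55%), 0 differed for ERKi 4h against 4h (0.00743% and 0.223%) and 0 rose and 5 fell for ERKi 24h against 24h (2.99% and 4.14%). With the replicate block they were 23 and 0 (12% and 5.12%), 30 and 9 (18.7% and 17.2%), 0 and 3 (0.839% and 3.24%), and 19 and 12 (13.3% and 14%) in the same order. Their median log2 difference at 24h against 0h was 0.09, beside 0.13 for the regions of the 8 genes and −0.03 for all regions. The largest gains at 24h lay at other cadherins, 36.3 kb upstream of Cdh6 (2.58 ± 0.27, adjusted p = 7.15e-06, limma) and downstream of a start site of Cdh5 (1.99 ± 0.26, adjusted p = 4.54e-05).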

How the data were processed

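H3K27ac ChIP-seq was analysed in 15 libraries of NMuMG cells (5 conditions of 3 replicates); inputs and RNA libraries were not analysed here. The authors used bowtie for alignment to mm9 and ran MACS2 on each library by itself at default parameters; which control it was given is not stated in the sources used here. The deposited peak lists give a fold enrichment over local background (a ratio), −log10 p and −log10 q values, and a score that was not used. Read depth is not given in the sources used here, so no counting interval is printed. Fragments at the summit were recovered from the deposited fold and −log10 p (to 0.005 in −log10 p for all but 25 of 893719 peaks), an assumption on how the peak caller computes them. Peaks with any overlap were merged into 89050 regions, levels were divided by median-of-ratios factors, and limma 3.58.1 (R 4.3.3) was fitted with a trend to log2 levels of the 26934 regions called in all 15 libraries, 1 coefficient per condition, p-values adjusted by Benjamini-Hochberg over all regions. An exact permutation test of 3 against 3 cannot go under 0.1. Whether replicates are separate cultures is not stated in the labels, so p-values measure the spread between these libraries.

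Replicate numbers, from the labels, pair the libraries: deviations from the condition means correlated for all 30 same-numbered pairs (r = 0.336 to 0.79), so fits with the number as a block are given where they change a call. Library levels correlated at 0.685 to 0.95 over regions. Start sites and annotation came from GENCODE vM1 on mm9 (46006 protein-coding start sites of 22232 genes), and all peaks lay within its chromosomes. A promoter window of 1000 bp on either side was set after summits were seen to lie downstream of start sites. Members and gene lists were chosen with earlier results of these data known. Regions were named by rule: promoter regions, regions past the threshold and regions called in all libraries of one condition and none of the other, up to 3 a gene of each kind, and for the Cdh1 and Cdh2 promoters the 3 genes most like them; regions past the threshold only with the block were named after their values were seen. The fit was tested on simulated data with libraries drawn independently. That test lacked the shared deviations of same-numbered libraries and does not bear on the choice of the block. Alternatives were fold enrichment, quantile normalization, a floor for missing peaks, stricter peaks, wider merging, other promoter windows, reaches and start sites, and each library left out. The sequence of 1 distal region is not reported here.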

Additional observations from a re-analysis of the deposited data

How the results depend on the processing

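Counts of regions of the 8 genes past the threshold moved as follows. With the replicate block 5 rose at 4h against 0h, 10 rose and 1 fell at 24h against 0h, 3 fell for ERKi 4h against 4h and 3 fell for ERKi 24h against 24h. With fold enrichment 0 rose at 4h and at 24h, 1 (Ctnna1, 24.7 kb upstream) fell at 24h and 0 rose for ERKi 24h against 24h. At a −log10 q of at least 10 they were 0 at 4h, 2 rising at 24h and 0 rising for ERKi 24h against 24h. With missing peaks set to a floor 10 rose and 2 fell at 24h and 2 fell for ERKi 24h against 24h. This setting gives an uncalled region the level of the library's smallest peaks, also where the chromatin around it is high. The 2 that fell with the inhibitor are the Cdh1 regions 2.0 and 2.9 kb downstream. Those that rose at 24h include Ctnnd1 30.5 kb downstream (1.73, adjusted p = 0.00278, limma) and Ctnna1 17.7 kb upstream (1.35, adjusted p = 0.0188). The 2 that fell at 24h are the Ctnnb1 regions 62.9 and 63.5 kb downstream (−1.71 and −1.89, adjusted p = 0.00108 and 0.00134, limma). For ERKi 24h against 24h these differed by 1.06 and 1.11 (adjusted p = 0.0451 and 0.0649, limma). Quantile normalization and merging peaks within 1000 bp kept all counts within 1.5 times. Leaving out single libraries gave 0 to 2 rising at 4h, 3 to 7 rising and 0 to 1 falling at 24h, and 0 to 2 rising for ERKi 24h against 24h, where 2 were kept only without 4h replicate 3 or 24h replicate 3; the count at 4h was 0 without 0h replicates 1 or 2 or 4h replicates 1 or 3, and that at 24h was 3 without 0h replicate 1 or 24h replicate 3. No promoter passed the threshold under fold enrichment, quantile normalization, the block or a library left out. In fold enrichment the log2 differences at 24h against 0h turned to −0.02 (−0.023) at the Cdh2 region 68.6 kb downstream, −0.08 at the Cdh3 region at 19.4 kb and −0.065 at the Ctnnb1 region 62.8 kb upstream. The local background by which it divides was also higher at 24h in these regions, and whether it came from the same reads was not tested.

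Genes whose distal peak numbers did not overlap numbered 0 at 4h against 0h at a −log10 q of at least 10 and with the 20000 strongest peaks, and at 24h against 0h 2 at a −log10 q of at least 10, with summits within 50 kb and with promoters up to 100 bp downstream, the last chosen after seeing the data (Cdh2 and Cdh3, Epcam and Ctnnb1, and Cdh2 and Ctnnd1 in turn); for ERKi 24h against 24h the stricter peaks gave 1. Libraries left out gave 1 to 2 at 4h and at 24h, 0 to 1 for ERKi 4h against 4h and 0 to 2 for ERKi 24h against 24h. Regions called in all libraries of one condition and none of the other numbered 2 at 4h against 0h when 0.5 of a region had to be covered, 0 for ERKi 4h against 4h under both that and stricter peaks, and 1 for ERKi 24h against 24h under both.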
